A study of Homo sapiens with 12 samples.

Results

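The genes described here are 60 genes of G2 phase and mitosis, taken from 19775 genes measured on the arrays, and they were read by 124 probe sets. They were chosen by function as the cyclins and kinases of mitotic entry, the kinetochore, the spindle checkpoint, the spindle, cytokinesis, the anaphase-promoting complex and condensin, with the kinesin motor family left out. CENPE is among them although it is itself a kinesin-type motor, because it works at the kinetochore. All 60 were measured, 27 of them by a single probe set and the others by up to 6.

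Expression was measured on Affymetrix U133 Plus 2.0 arrays in HPB-ALL and KOPT-K1, cell lines grown from human T-cell acute lymphoblastic leukaemias that depend on activated NOTCH1. Cells were given SAHM1 at 20 µM, or its solvent DMSO, for 24 h. SAHM1 is a hydrocarbon-stapled helical peptide modelled on mastermind-like, a co-activator of NOTCH, and it was designed to keep that co-activator off the NOTCH complex on DNA. The 4 groups were HPB-ALL with SAHM1, HPB-ALL with DMSO, KOPT-K1 with SAHM1 and KOPT-K1 with DMSO, each with 3 cultures and 1 array per culture.

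Each deposited value is a ratio to the mean of the 3 DMSO arrays of the same line, so DMSO arrays lie around 1 by construction and absolute levels are lost. Changes are given as log2 differences, SAHM1 minus DMSO, ± the standard error from limma (n = 3 arrays per group), and a gene is said to have risen or fallen where its Benjamini-Hochberg adjusted p over all 19775 genes was under 0.05. A ratio cannot show whether T-lineage markers were present or other cell types absent. Of 8 measured T-lineage markers, 1 rose and 2 fell in HPB-ALL, where 4.96% and 4.38% of all genes did so. In KOPT-K1 1 of 4 B-cell markers rose, where 5.85% of all genes did so. None of the other markers of these lists, nor any of 5 myeloid and 2 erythroid ones, was called, although 2 T-lineage markers and 1 erythroid marker had an unadjusted p under 0.05 in limma in KOPT-K1.

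Entry into mitosis is driven by CDK1 bound to cyclin A or B, which WEE1 holds back and CDC25 phosphatases release. Polo-like and Aurora kinases then build the spindle, kinetochores attach chromosomes to it, and the spindle checkpoint restrains the anaphase-promoting complex (APC/C) until all are attached. Transcripts of these genes accumulate late in the cell cycle in dividing cells, including leukaemic T cells, under NF-Y, which binds CCAAT boxes, and under B-MYB, FOXM1 and the DREAM complex, which are recruited through the cell cycle genes homology region (CHR, TTTGAA or TTCGAA).

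The promoters printed are those of the 5 genes with the smallest p in the average of both lines, and they were not chosen by motif. All hold CCAAT boxes, and 3 of them hold a CHR. The sequences are from RefSeq (GRCh38.p14) and run from 250 bases before to 50 bases after the start of transcription, 5′ to 3′ on the strand of the gene. HMMR lies on the plus strand at chr5:163460382-163460681, CENPA on the plus strand at chr2:26785806-26786105, NEK2 on the minus strand at chr1:211675572-211675871, CCNB1 on the plus strand at chr5:69166900-69167199 and CKS2 on the plus strand at chr9:89310945-89311244. Capitals mark the CCAAT motif (or ATTGG, its form on the other strand) and the CHR (or TTCAAA, its form on the other strand).
HMMR: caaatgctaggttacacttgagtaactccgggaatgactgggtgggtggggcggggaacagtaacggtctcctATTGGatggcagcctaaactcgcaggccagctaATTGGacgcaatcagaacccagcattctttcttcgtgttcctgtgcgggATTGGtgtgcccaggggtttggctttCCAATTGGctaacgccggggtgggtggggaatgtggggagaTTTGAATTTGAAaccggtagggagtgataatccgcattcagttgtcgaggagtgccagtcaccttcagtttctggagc
CENPA: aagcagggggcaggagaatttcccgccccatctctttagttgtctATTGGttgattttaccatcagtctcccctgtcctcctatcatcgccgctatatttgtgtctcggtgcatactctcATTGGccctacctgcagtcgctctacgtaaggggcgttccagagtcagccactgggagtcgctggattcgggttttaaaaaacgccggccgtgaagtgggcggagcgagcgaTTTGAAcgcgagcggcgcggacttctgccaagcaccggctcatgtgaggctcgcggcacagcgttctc
NEK2: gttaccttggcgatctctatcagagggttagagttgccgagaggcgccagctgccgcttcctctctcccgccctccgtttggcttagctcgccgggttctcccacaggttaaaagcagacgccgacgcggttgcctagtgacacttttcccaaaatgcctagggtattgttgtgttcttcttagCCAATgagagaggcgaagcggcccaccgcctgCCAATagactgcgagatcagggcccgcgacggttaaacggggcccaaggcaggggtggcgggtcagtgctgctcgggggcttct
CCNB1: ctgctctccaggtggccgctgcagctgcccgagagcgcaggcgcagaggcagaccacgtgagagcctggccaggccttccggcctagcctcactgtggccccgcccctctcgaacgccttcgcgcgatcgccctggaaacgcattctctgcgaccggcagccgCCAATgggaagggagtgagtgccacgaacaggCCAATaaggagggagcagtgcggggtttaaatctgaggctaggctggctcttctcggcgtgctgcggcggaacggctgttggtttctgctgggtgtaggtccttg
CKS2: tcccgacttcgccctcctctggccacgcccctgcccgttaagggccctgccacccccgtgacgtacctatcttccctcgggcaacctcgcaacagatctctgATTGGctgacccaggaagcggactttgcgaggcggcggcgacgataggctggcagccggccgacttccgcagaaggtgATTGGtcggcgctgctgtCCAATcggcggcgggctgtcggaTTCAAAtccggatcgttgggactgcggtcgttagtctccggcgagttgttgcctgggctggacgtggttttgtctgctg
HMMR held 5 CCAAT motifs, a pair of which overlap on opposite strands, and adjoining TTTGAA motifs that begin 28 and 22 bases before the start. CENPA held a pair of CCAAT motifs and a TTTGAA that begins 18 bases before the start, and CKS2 held CCAAT on both strands and a TTTGAA on the minus strand. NEK2 and CCNB1 held CCAAT at a pair of places each, and these letters of the CHR were not in their windows.

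Across the gene set, 51 of the 60 genes had a promoter in the table, with 68 windows in all. CCAAT stood in 46 of the 68 windows (67.6%) and in 34.6% of all 35116 promoters of the same length, and in 26 of 42 windows of G1/S and DNA replication genes (61.9%). TTTGAA or TTCGAA stood in 63.2% of the mitotic windows and in 16.4% of all promoters, and CCAAT together with either of these in 48.5% and 6.38%. For comparison, TTTGAA or TTCGAA stood in 9.52% of those G1/S windows. GGCGGGAA, an E2F site, stood in 7.35% of the mitotic windows and 23.8% of the G1/S windows. TGGGAA, the core read by the NOTCH partner RBPJ, stood in 27.9% of the mitotic windows and 24.0% of all promoters. CACGTG, an E-box read by MYC, stood in 8.82% and 7.26%. TTTGAA or TTCGAA stood in 22 of 33 windows of genes that rose in HPB-ALL and in 21 of 35 windows of the other mitotic genes. All motifs were searched on both strands, and the shares were not tested.

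More of the mitotic genes rose in HPB-ALL than in KOPT-K1. In HPB-ALL 33 of 60 rose and 0 fell, where 4.96% of all genes rose and 4.38% fell (9.34% called in either direction). In KOPT-K1 13 rose and 3 fell, where 5.85% of all genes rose and 13.2% fell (19.0% called in either direction). At an unadjusted p under 0.05 in limma, 46 of the 60 genes passed in HPB-ALL, where 22.0% of all genes did, and 22 in KOPT-K1, where 32.9% of all genes did, so that the KOPT-K1 count is near the share over all genes. The median log2 change of the 60 genes was 0.30 in HPB-ALL and 0.03 in KOPT-K1, beside medians over all genes of -0.02 and 0.00002. All changes but that of ASPM in HPB-ALL were under 2-fold. In bulk RNA, more or fewer cells in a phase of the cycle and more or less RNA per cell cannot be told apart.

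**Figure D1:**
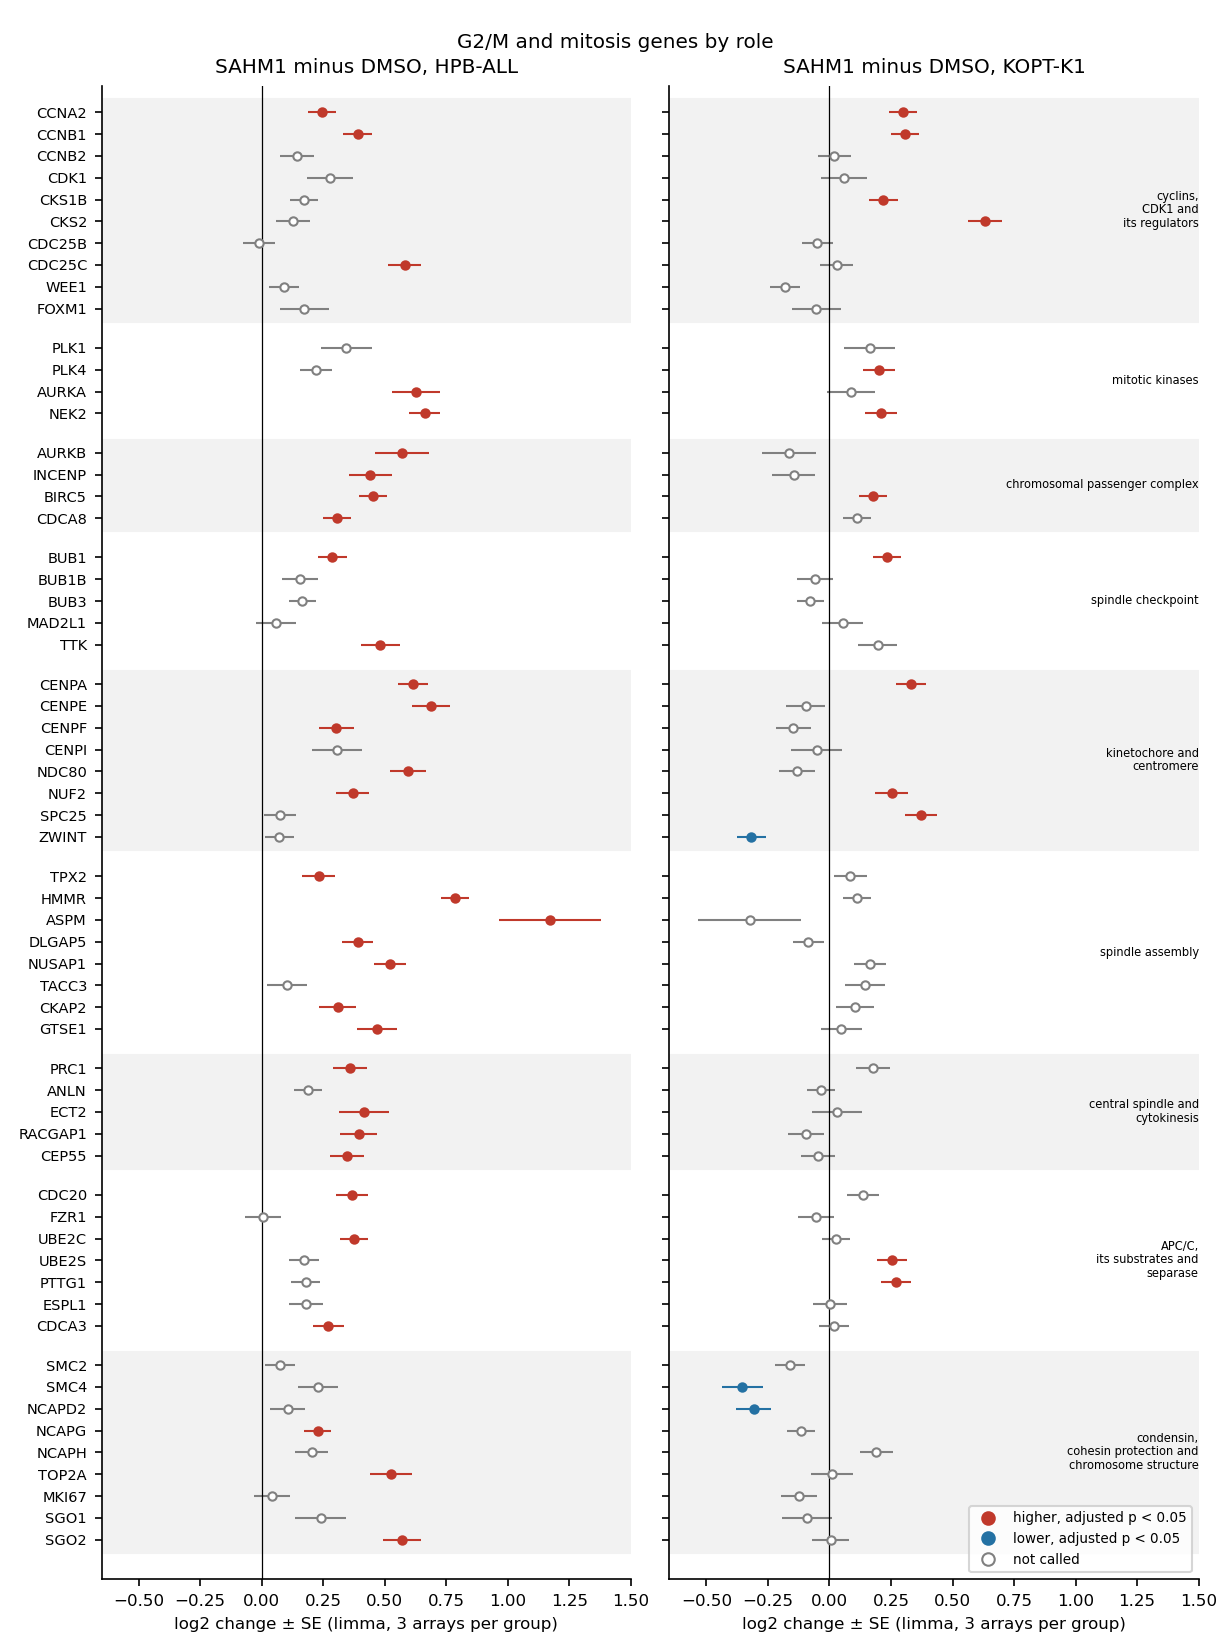
Log2 change with SAHM1 (x axis, SAHM1 minus DMSO, ± SE) of the 60 mitotic genes by role, HPB-ALL on the left and KOPT-K1 on the right, 3 arrays per group. Filled points passed an adjusted p of 0.05. In HPB-ALL 33 points are filled and all lie right of 0, and in KOPT-K1 13 lie right and 3 left of it.

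Without the test, the arrays show the same contrast between the lines. All 3 SAHM1 arrays lay above all 3 DMSO arrays for 46 of 60 genes in HPB-ALL, where 13.4% of all genes did so, and they lay below for 0, where 15.7% of all genes did so. In KOPT-K1 they lay above for 22 genes, where 13.5% of all genes did so, and below for 12, where 21.6% did so. The mean log2 ratio over the 60 genes was between 0.31 and 0.33 on the HPB-ALL SAHM1 arrays and between -0.05 and 0.03 on the HPB-ALL DMSO arrays. It was between 0.02 and 0.06 on the KOPT-K1 SAHM1 arrays and between -0.0053 and 0.0030 on the KOPT-K1 DMSO arrays.

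A limit stands beside every HPB-ALL count. The 3 control probe sets for 18S ribosomal RNA averaged 1.35 to 1.89 on the HPB-ALL SAHM1 arrays and -1.65 to 1.05 on the HPB-ALL DMSO arrays, in log2 ratio, and DMSO replicate 1 held the 1.05. Their difference was 2.19 (exact two-sided permutation p = 0.10, the smallest possible with 3 arrays against 3). In KOPT-K1 the difference was -0.26 (exact p = 0.20). Adding the 18S level to the model as a covariate left 2 genes called in HPB-ALL, HMMR (0.77 ± 0.10, adjusted p = 0.0103) and CENPA (0.61 ± 0.10, adjusted p = 0.0364), where 0.157% of all genes rose. The median change of the 60 genes in HPB-ALL was then 0.29, and their median SE was 0.11 where it was 0.07 without the covariate. In KOPT-K1, 13 genes rose with the same covariate, where 5.07% of all genes did so. The part of the 18S signal in the HPB-ALL result was not tested further. Leaving out DMSO replicate 1, 34 genes rose in HPB-ALL, where 5.79% of all genes did so. Quantile normalization of the ratios left 10 genes called in HPB-ALL, all of them rises, where 0.455% of all genes rose. It left 0 called in KOPT-K1, where 11 had an unadjusted p under 0.05 in limma and 95 of all 19775 genes were called.

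**Figure D2:**
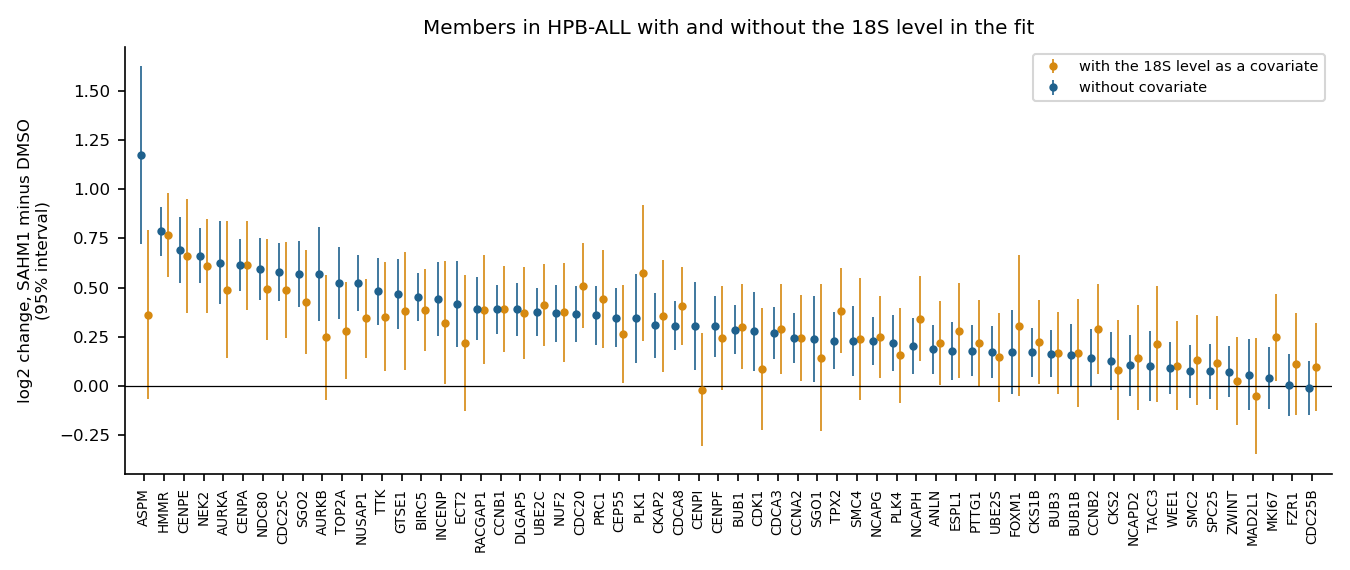
Log2 change with SAHM1 in HPB-ALL (y axis, SAHM1 minus DMSO, with 95% interval) of the 60 mitotic genes (x axis, ordered by size), from the fit with the 18S control level as a covariate and from the fit without it. The median SE is 0.11 with the covariate, against 0.07 without it. ASPM moves most, to 0.36 with the covariate, against 1.17 without it, and its interval is slightly narrower with it.

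Among cyclins, CDK1 and its regulators, 3 of 10 genes rose in HPB-ALL and 4 of 10 in KOPT-K1, and 0 fell in either line. Over all genes 4.96% rose and 4.38% fell in HPB-ALL, and 5.85% rose and 13.2% fell in KOPT-K1. CCNB1, cyclin B1, the partner of CDK1 at mitotic entry, rose in both. Its ratio in HPB-ALL was 1.25, 1.35 and 1.33 with SAHM1, against 1.01, 0.953 and 1.03 with DMSO (0.39 ± 0.06, adjusted p = 0.00153). In KOPT-K1 it was 1.23, 1.21 and 1.27 with SAHM1, against 1.01, 1.01 and 0.980 with DMSO (0.31 ± 0.06, adjusted p = 0.00338). The groups did not overlap in either line, and a difference between the lines was not called (0.08 ± 0.08, adjusted p = 0.529). CCNA2, cyclin A2, which acts in S phase and G2, rose to 1.15, 1.22 and 1.18 in HPB-ALL with SAHM1 and to 1.23, 1.22 and 1.23 in KOPT-K1 with SAHM1, and all its DMSO arrays lay between 0.931 and 1.04. CDK1 itself, the kinase, was not called as a gene, at 0.28 ± 0.09 in HPB-ALL (adjusted p = 0.0853) and 0.06 ± 0.09 in KOPT-K1 (adjusted p = 0.712). Tested singly, 2 of its 4 probe sets were called higher in HPB-ALL, where the 4 ran from 0.19 to 0.33. In KOPT-K1 they ran from -0.19 to 0.18 and 0 were called.

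CKS2, a small subunit that binds CDK1, showed the reverse order of the lines. With SAHM1 it reached 1.52, 1.58 and 1.53 in KOPT-K1, against 0.894, 1.02 and 1.08 with DMSO (0.63 ± 0.07, adjusted p = 0.000102), the largest rise among the 60 genes in that line. In HPB-ALL it stood at 1.10, 1.09 and 1.08 with SAHM1, against 1.01, 0.977 and 1.01 with DMSO (0.13 ± 0.07, adjusted p = 0.312). The response in HPB-ALL was lower than that in KOPT-K1 by the test of the difference (-0.50 ± 0.10, adjusted p = 0.00447). CKS2 was read by 1 probe set, with the suffix _s_at, which marks probes shared between transcripts. Its relative CKS1B rose in KOPT-K1 as well (0.22 ± 0.06) and was at 0.17 ± 0.06 in HPB-ALL (adjusted p = 0.0861).

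CDC25C, a phosphatase that activates CDK1, rose in HPB-ALL to 1.42, 1.52 and 1.52 with SAHM1, against 1.06, 0.960 and 0.965 with DMSO (0.58 ± 0.07, adjusted p = 0.000362), and was at 0.03 ± 0.07 in KOPT-K1. Its 3 probe sets did not agree, since the set without the _s_at suffix was called in KOPT-K1 (0.42) and not in HPB-ALL (0.30), and the other 2 were at 0.61 and 0.83 in HPB-ALL and -0.05 and -0.29 in KOPT-K1. WEE1, the kinase that opposes CDC25C, was called in neither line (0.09 ± 0.06 in HPB-ALL and -0.18 ± 0.06 in KOPT-K1), and the difference between its responses was called (0.27 ± 0.09, adjusted p = 0.0456, lost in 10 of the 12 fits that left out 1 array). FOXM1, a transcription factor of G2 genes, was at 0.17 ± 0.10 and -0.05 ± 0.10, and its SAHM1 and DMSO arrays overlapped in both lines. The remaining regulators, CCNB2 and CDC25B, lay between -0.05 and 0.14 and were not called.

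Of the 4 mitotic kinases, NEK2 and AURKA rose in HPB-ALL, and NEK2 and PLK4 in KOPT-K1, where 4.96% and 5.85% of all genes rose. NEK2, which splits the centrosomes at the onset of mitosis, had ratios of 1.56, 1.61 and 1.58 in HPB-ALL with SAHM1, against 1.04, 0.935 and 1.02 with DMSO (0.66 ± 0.06, adjusted p = 0.000124). In KOPT-K1 it had 1.22, 1.18 and 1.07 with SAHM1, against 0.998, 1.01 and 0.993 with DMSO (0.21 ± 0.06, adjusted p = 0.0397). The HPB-ALL response was the larger (difference 0.45 ± 0.09, adjusted p = 0.0055), and the KOPT-K1 call was lost in 9 of the 12 fits that left out 1 array. AURKA, Aurora A, which matures centrosomes, reached 1.31, 1.63 and 1.70 in HPB-ALL with SAHM1, against 1.07, 0.986 and 0.927 with DMSO (0.63 ± 0.10, adjusted p = 0.00194). Its SAHM1 replicate 1 was the lowest of the 3, still above every DMSO array, and its KOPT-K1 change was 0.09 ± 0.10. Of its 3 probe sets, 2 were called higher in HPB-ALL. Without probe sets of the _s_at kind, AURKA was at 0.45 ± 0.23 in HPB-ALL (adjusted p = 0.328). Its difference between the lines was then 0.39 ± 0.33 (adjusted p = 0.475). PLK4, the kinase of centriole duplication, stood at 0.22 ± 0.07 in HPB-ALL (adjusted p = 0.0551) and rose by 0.20 ± 0.07 in KOPT-K1 (adjusted p = 0.0496, lost in 9 of those 12 fits). PLK1, a kinase needed throughout mitosis, was at 0.34 ± 0.10 (adjusted p = 0.0588) and 0.16 ± 0.10 (adjusted p = 0.302), and SAHM1 and DMSO arrays did not overlap in either line.

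The chromosomal passenger complex corrects faulty attachments and steers cytokinesis, and 4 of its 4 genes rose in HPB-ALL, where 4.96% of all genes did so. AURKB, its kinase Aurora B, had 1.45, 1.53 and 1.41 in HPB-ALL with SAHM1, against 1.17, 0.909 and 0.896 with DMSO (0.57 ± 0.11, adjusted p = 0.00651). In KOPT-K1 it had 0.808, 0.873 and 0.995 with SAHM1, against 1.06, 1.03 and 0.903 with DMSO (-0.17 ± 0.11, adjusted p = 0.321). HPB-ALL arrays were separate and KOPT-K1 arrays overlapped, and the difference was 0.74 ± 0.15 (adjusted p = 0.00701). Its 2 probe sets were both called in HPB-ALL (0.33 and 0.81) and were at 0.07 and -0.41 in KOPT-K1. INCENP, the scaffold, was at 0.44 ± 0.09 in HPB-ALL (adjusted p = 0.00745) and -0.15 ± 0.09 in KOPT-K1 (adjusted p = 0.269). BIRC5, survivin, which brings the complex to centromeres, rose by 0.45 ± 0.06 in HPB-ALL and by 0.18 ± 0.06 in KOPT-K1, where its adjusted p was 0.0492 and the call was lost in all 12 fits without 1 array. CDCA8, borealin, rose in HPB-ALL to 1.19, 1.25 and 1.27 with SAHM1, against 0.945, 1.05 and 1.01 with DMSO.

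In the spindle checkpoint, 2 of 5 genes rose in HPB-ALL and 1 in KOPT-K1, where 4.96% and 5.85% of all genes did so. BUB1, the kinase that marks unattached kinetochores, rose in both. It had 1.17, 1.20 and 1.28 in HPB-ALL with SAHM1, against 1.01, 0.972 and 1.01 with DMSO (0.29 ± 0.06, adjusted p = 0.00849), and 1.23, 1.13 and 1.15 in KOPT-K1 with SAHM1, against 1.00, 0.993 and 0.993 with DMSO (0.23 ± 0.06, adjusted p = 0.0146). TTK, also called MPS1, which starts checkpoint signalling, rose in HPB-ALL with 1.29, 1.45 and 1.44 under SAHM1, against 1.09, 0.899 and 1.01 under DMSO (0.48 ± 0.08, adjusted p = 0.00253). In KOPT-K1 its SAHM1 arrays were all above its DMSO arrays, at 0.20 ± 0.08 (adjusted p = 0.101). Genes of the checkpoint complex that binds CDC20 were not called. BUB1B was at 0.16 ± 0.07 in HPB-ALL and -0.06 ± 0.07 in KOPT-K1, BUB3 at 0.17 ± 0.06 and -0.08 ± 0.06, and MAD2L1 at 0.06 ± 0.08 and 0.05 ± 0.08.

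Of 8 kinetochore genes, 5 rose in HPB-ALL and 0 fell, and in KOPT-K1 3 rose and 1 fell. Over all genes 4.96% rose and 4.38% fell in HPB-ALL. In KOPT-K1 5.85% rose and 13.2% fell, and the 1 fall there is near the latter share. CENPA, the histone H3 variant that defines centromeres, rose in both lines. Its ratio was 1.53, 1.50 and 1.56 in HPB-ALL with SAHM1, against 0.989, 1.04 and 0.968 with DMSO (0.62 ± 0.06, adjusted p = 0.000124), and 1.26, 1.27 and 1.24 in KOPT-K1 with SAHM1, against 0.939, 1.06 and 1.00 with DMSO (0.33 ± 0.06, adjusted p = 0.00276). The SAHM1 arrays agreed closely in each line, the HPB-ALL response was larger by 0.28 ± 0.09 (adjusted p = 0.0381), and that difference was lost in 10 of the 12 fits without 1 array. A single probe set read CENPA, of the _x_at kind, whose probes may bind other transcripts.

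CENPE, the motor that carries chromosomes to the spindle equator, stood at 1.64, 1.65 and 1.55 in HPB-ALL with SAHM1, against 1.03, 0.986 and 0.986 with DMSO (0.69 ± 0.08, adjusted p = 0.000265). In KOPT-K1 it stood at 1.04, 0.861 and 0.909 with SAHM1, against 1.08, 0.947 and 0.969 with DMSO (-0.10 ± 0.08, adjusted p = 0.415). The responses differed by 0.79 ± 0.11 (adjusted p = 0.000735). The subunits of the NDC80 complex, which grips microtubule ends, gave different calls. NDC80 rose in HPB-ALL (0.59 ± 0.07, adjusted p = 0.000461) and stood at -0.13 ± 0.07 (adjusted p = 0.225) in KOPT-K1. NUF2, its direct partner, rose in both, by 0.37 ± 0.07 and 0.25 ± 0.07. SPC25, at the other end of the complex, was at 0.07 ± 0.06 in HPB-ALL (adjusted p = 0.577) and rose in KOPT-K1 to 1.28, 1.24 and 1.36 with SAHM1, against 1.01, 1.01 and 0.981 with DMSO (0.37 ± 0.06, adjusted p = 0.00218). SPC25 was, with CKS2, 1 of the 2 genes whose HPB-ALL response was the lower (-0.30 ± 0.09, adjusted p = 0.0436), and that call was lost in 10 of the 12 fits without 1 array. Each of these 3 subunits was read by 1 probe set.

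ZWINT, which docks the checkpoint machinery at kinetochores, fell in KOPT-K1. It had 0.820, 0.819 and 0.769 there with SAHM1, against 0.964, 1.01 and 1.03 with DMSO (-0.32 ± 0.06, adjusted p = 0.00339). In HPB-ALL it was at 0.07 ± 0.06 (adjusted p = 0.555), and the difference was 0.39 ± 0.08 (adjusted p = 0.00848). CENPF, a large kinetochore and nuclear matrix protein, rose in HPB-ALL (0.30 ± 0.07, adjusted p = 0.0198) and was at -0.15 ± 0.07 in KOPT-K1. Tested singly, 0 of its 3 probe sets were called in HPB-ALL (0.22 to 0.40). In KOPT-K1, where they ran from -0.27 to 0.01, 1 was called lower. CENPI, of the inner kinetochore, was called in neither (0.31 ± 0.10 and -0.05 ± 0.10).

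**Figure D3:**
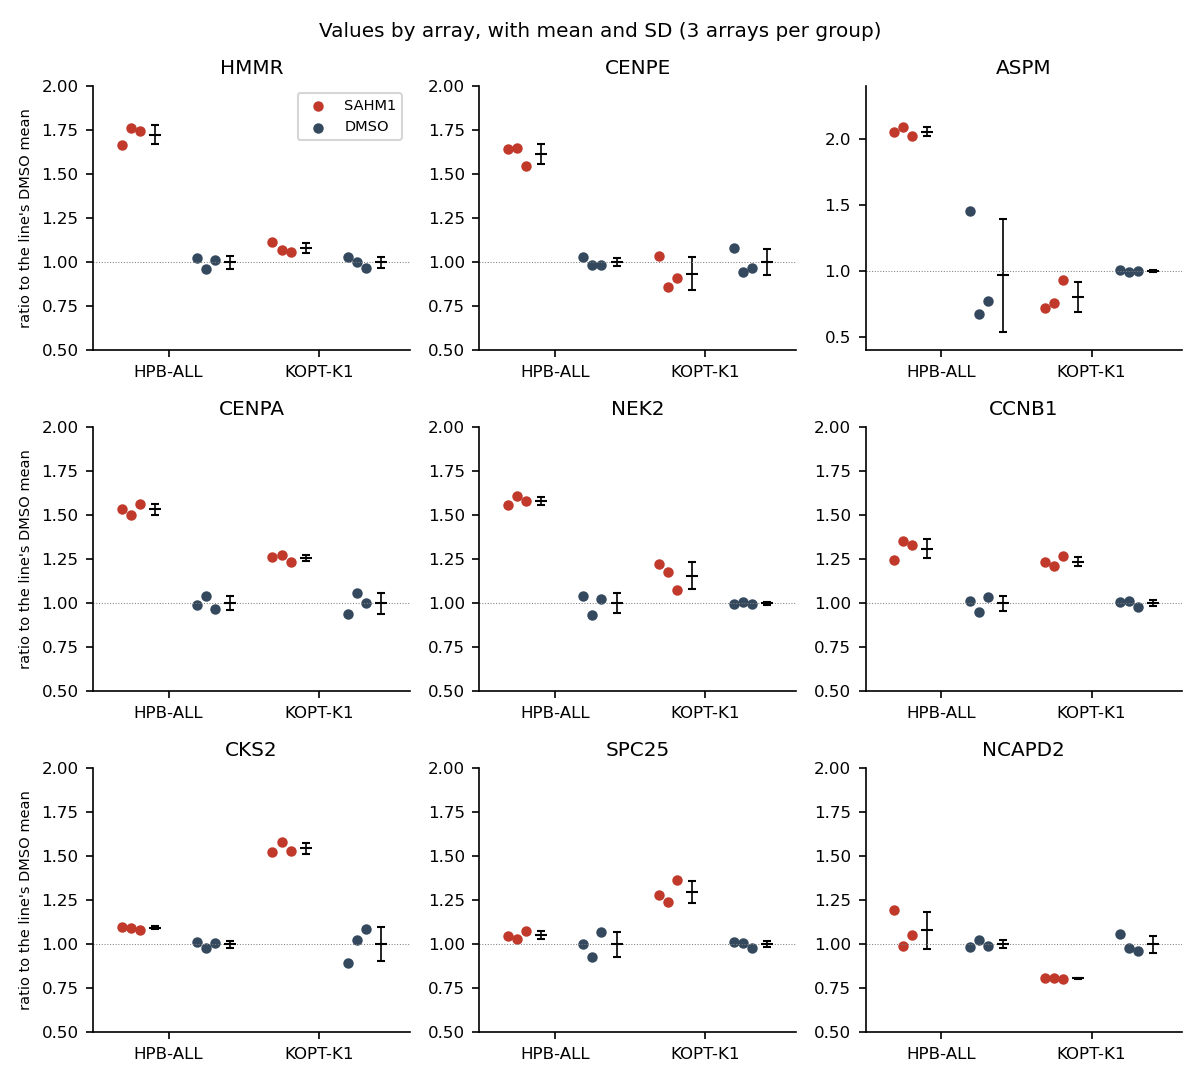
Ratio to the DMSO mean of the line (y axis) on each array for 9 mitotic genes, SAHM1 left of DMSO within HPB-ALL and within KOPT-K1 (x axis), with mean and SD of the 3 arrays beside them. HMMR and CENPE are high on the HPB-ALL SAHM1 arrays, CKS2 and SPC25 on the KOPT-K1 SAHM1 arrays, and NCAPD2 is low on the KOPT-K1 SAHM1 arrays. The scale of the ASPM panel is wider, and DMSO replicate 1 of HPB-ALL stands at 1.45.

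In spindle assembly 7 of 8 genes rose in HPB-ALL, where 4.96% of all genes did so. In KOPT-K1, where 19.0% of all genes were called, 0 of these 8 were called (1 at an unadjusted p under 0.05 in limma). HMMR, a spindle protein that helps nucleate and focus microtubules, was the gene of the 60 with the smallest p in HPB-ALL. It had 1.66, 1.76 and 1.75 there with SAHM1, against 1.03, 0.959 and 1.01 with DMSO, a 1.73-fold rise (0.79 ± 0.06, adjusted p = 1.43e-05). In KOPT-K1 it had 1.11, 1.07 and 1.06 with SAHM1, against 1.03, 0.999 and 0.969 with DMSO (0.11 ± 0.06, adjusted p = 0.188). Both of its probe sets were called in HPB-ALL (0.74 and 0.83), and the difference between the lines was 0.67 ± 0.08 (adjusted p = 0.000288).

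ASPM, which focuses spindle poles, had the largest change and the largest error. It was at 2.05, 2.09 and 2.02 in HPB-ALL with SAHM1, against 1.45, 0.676 and 0.772 with DMSO, a 2.25-fold rise (1.17 ± 0.21, adjusted p = 0.00414). In KOPT-K1 it was at 0.724, 0.755 and 0.930 with SAHM1, against 1.01, 0.991 and 0.999 with DMSO (-0.32 ± 0.21, adjusted p = 0.307). All 3 SAHM1 arrays thus lay below all 3 DMSO arrays in KOPT-K1. The error was estimated over all 4 groups together, and the SD of the ratio was 0.42 in HPB-ALL DMSO and 0.0090 in KOPT-K1 DMSO. The DMSO array at 1.45 was the one with the high 18S level. The change in HPB-ALL was 0.36 ± 0.20 with the 18S covariate (adjusted p = 0.719) and 1.51 without that array. Its 3 probe sets were all called in HPB-ALL and ran from 0.39 to 1.66.

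NUSAP1, which bundles spindle microtubules near chromosomes, rose in HPB-ALL (0.52 ± 0.07, adjusted p = 0.000578), with 1.46, 1.41 and 1.40 under SAHM1, against 1.09, 0.956 and 0.936 under DMSO, and was at 0.16 ± 0.07 in KOPT-K1. Of its 2 probe sets, both were called higher in HPB-ALL and 1 in KOPT-K1. Without _x_at and _s_at probe sets, NUSAP1 rose in KOPT-K1 too (0.23 ± 0.07, adjusted p = 0.0367). Its difference between the lines was then not called (0.14 ± 0.10, adjusted p = 0.373). With the 18S covariate it also rose in KOPT-K1 (0.19 ± 0.06, adjusted p = 0.0423). DLGAP5, also called HURP, which stabilises kinetochore fibres, rose in HPB-ALL by 0.39 ± 0.06 and was at -0.09 ± 0.06 in KOPT-K1. GTSE1, a microtubule plus-end protein, rose in HPB-ALL by 0.47 ± 0.08, with 4 of its 5 probe sets called. TPX2, the activator of AURKA, rose by 0.23 ± 0.07 (adjusted p = 0.0456), and CKAP2 by 0.31 ± 0.08 (adjusted p = 0.0238), although 1 of its 3 probe sets was at -0.07. TACC3, a clathrin-bound spindle protein, was not called, at 0.10 ± 0.08 in HPB-ALL and 0.14 ± 0.08 in KOPT-K1.

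At the central spindle and in cytokinesis, 4 of 5 genes rose in HPB-ALL, where 4.96% of all genes did so. In KOPT-K1, where 19.0% of all genes were called, 0 of 5 were called (1 at an unadjusted p under 0.05 in limma). PRC1, which bundles the antiparallel microtubules of the midzone, had 1.30, 1.26 and 1.28 in HPB-ALL with SAHM1, against 0.954, 1.06 and 0.982 with DMSO (0.36 ± 0.07, adjusted p = 0.00623). RACGAP1, the GTPase-activating subunit of centralspindlin, had 1.24, 1.30 and 1.39 with SAHM1, against 1.04, 0.890 and 1.07 with DMSO (0.39 ± 0.07, adjusted p = 0.00572). SAHM1 and DMSO arrays were separate for both. ECT2, the exchange factor that activates RhoA at the furrow, rose by 0.42 ± 0.10 (adjusted p = 0.0222, lost in 4 of the 12 fits without 1 array), and CEP55, which recruits the abscission machinery, by 0.35 ± 0.07 (adjusted p = 0.00759). ANLN, anillin, the scaffold of the contractile ring, was at 0.19 ± 0.06 (adjusted p = 0.0607). In KOPT-K1 the 5 genes lay between -0.09 and 0.18, and PRC1 was the highest (adjusted p = 0.0902).

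Within the APC/C group, 3 of 7 genes rose in HPB-ALL and 2 others in KOPT-K1, where 4.96% and 5.85% of all genes rose. CDC20, the mitotic activator of the APC/C, had 1.35, 1.26 and 1.26 in HPB-ALL with SAHM1, against 0.921, 1.06 and 1.02 with DMSO (0.37 ± 0.07, adjusted p = 0.00409), and stood at 0.14 ± 0.07 (adjusted p = 0.161) in KOPT-K1. FZR1, the activator used from mitotic exit through G1, was at 0.0049 ± 0.07 in HPB-ALL and -0.05 ± 0.07 in KOPT-K1, with overlapping arrays in both. The ubiquitin-conjugating enzymes of the APC/C were called in different lines. UBE2C, which starts ubiquitin chains, rose in HPB-ALL to 1.31, 1.27 and 1.31 with SAHM1, against 0.979, 1.04 and 0.981 with DMSO, and was at 0.03 ± 0.06 in KOPT-K1 (difference 0.35 ± 0.08, adjusted p = 0.0108). UBE2S, which lengthens them, was at 0.17 ± 0.06 in HPB-ALL (adjusted p = 0.101) and rose by 0.26 ± 0.06 in KOPT-K1 (adjusted p = 0.0118), and a difference was not called (-0.08 ± 0.09, adjusted p = 0.56). PTTG1, securin, the inhibitor of separase, rose in KOPT-K1 to 1.21, 1.24 and 1.17 with SAHM1, against 1.00, 1.01 and 0.992 with DMSO, and was at 0.18 ± 0.06 in HPB-ALL (adjusted p = 0.0834). ESPL1, separase, which cuts cohesin, was called in neither line (0.18 ± 0.07 in HPB-ALL, adjusted p = 0.134). CDCA3, an adaptor for the degradation of WEE1, rose in HPB-ALL (0.27 ± 0.06, adjusted p = 0.0157).

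Of 9 genes of condensin and chromosome structure, 3 rose and 0 fell in HPB-ALL, and 0 rose and 2 fell in KOPT-K1, where the median change was -0.12. Over all genes, 4.96% rose and 4.38% fell in HPB-ALL, and 5.85% rose and 13.2% fell in KOPT-K1. Whether the 2 falls exceed that share was not tested. SMC4, a core ATPase of condensin, had 1.20, 1.20 and 1.11 in HPB-ALL with SAHM1, against 1.00, 0.960 and 1.03 with DMSO (0.23 ± 0.08, adjusted p = 0.11). It had 0.906, 0.722 and 0.731 in KOPT-K1 with SAHM1, against 1.01, 0.983 and 1.01 with DMSO (-0.35 ± 0.08, adjusted p = 0.0105). Its responses differed by 0.58 ± 0.12 (adjusted p = 0.00522), and 2 of its 3 probe sets were called lower in KOPT-K1. In HPB-ALL 1 of the 3 was called higher, and without _x_at and _s_at probe sets SMC4 rose there (0.29 ± 0.07, adjusted p = 0.0264). NCAPD2, a regulatory subunit of condensin I, had 0.811, 0.808 and 0.803 in KOPT-K1 with SAHM1, against 1.06, 0.978 and 0.965 with DMSO (-0.31 ± 0.07, adjusted p = 0.0104), and was at 0.11 ± 0.07 in HPB-ALL.

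The other condensin I subunits were not called lower in KOPT-K1. NCAPG rose in HPB-ALL (0.23 ± 0.06, adjusted p = 0.0232, lost in 5 of the 12 fits without 1 array) and was at -0.12 ± 0.06 in KOPT-K1. NCAPH was at 0.20 ± 0.07 in HPB-ALL (adjusted p = 0.0746) and 0.19 ± 0.07 in KOPT-K1 (adjusted p = 0.0591), and SMC2 was called in neither. TOP2A, the topoisomerase that untangles sister DNA, rose in HPB-ALL with 1.48, 1.40 and 1.39 under SAHM1, against 1.14, 0.905 and 0.940 under DMSO (0.53 ± 0.08, adjusted p = 0.00233), and its 3 probe sets ran from 0.24 to 0.95. SGO2, shugoshin 2, which protects centromeric cohesin, rose in HPB-ALL to 1.54, 1.43 and 1.45 with SAHM1, against 1.10, 0.883 and 1.01 with DMSO (0.57 ± 0.08, adjusted p = 0.000858), and was at 0.0043 ± 0.08 in KOPT-K1. Its relative SGO1 was called in neither line (0.24 ± 0.10 and -0.09 ± 0.10). MKI67, the Ki-67 antigen that coats mitotic chromosomes and marks cycling cells, was not called in either, with 0.04 ± 0.07 in HPB-ALL (adjusted p = 0.819) and -0.12 ± 0.07 in KOPT-K1 (adjusted p = 0.27), and all 4 of its probe sets agreed in not being called.

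Set side by side, rises were called in both lines for 7 genes, CCNA2, CCNB1, NEK2, BIRC5, BUB1, CENPA and NUF2, where 0.202% of all genes rose in both. They were 7 of the 33 rises in HPB-ALL and 7 of the 13 in KOPT-K1, and over all genes 40 of 980 and 40 of 1156 rises were shared. Another 26 rose in HPB-ALL and were not called in KOPT-K1, where 2.88% of all genes did so. A further 6 rose in KOPT-K1 and were not called in HPB-ALL (CKS1B, CKS2, PLK4, SPC25, UBE2S and PTTG1), where 5.43% of all genes did so. The 3 that fell in KOPT-K1 (ZWINT, SMC4 and NCAPD2) were not called in HPB-ALL, and 18 were called in neither. The test of the difference called 27 of 60 genes, 25 with the higher response in HPB-ALL and 2 with the lower, where 11.4% and 5.41% of all genes were called, 16.8% in either direction. That count was 2 with the 18S covariate, 1 after quantile normalization and 0 with both 18S and spike levels as covariates (17 at an unadjusted p under 0.05 in limma). It called 18 of the 26 that rose in HPB-ALL without a call in KOPT-K1 and 2 of the 6 that rose in KOPT-K1 without a call in HPB-ALL. Across the 60 genes the changes in the lines had a Pearson r of -0.04 and a Spearman rho of 0.09, as a description over genes that share the same arrays, and r was 0.11 without ASPM. Averaged over both lines, 33 genes rose and 0 fell, where 3.16% and 8.13% of all genes did so.

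**Figure D4:**
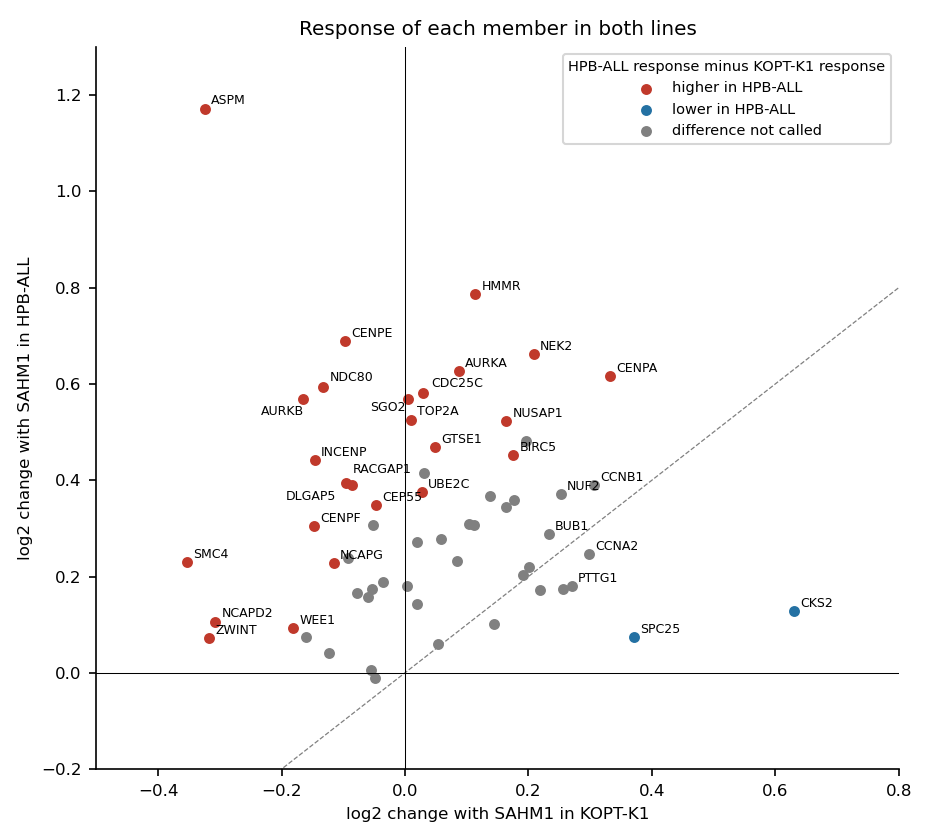
Log2 change with SAHM1 in HPB-ALL (y axis) against that in KOPT-K1 (x axis) for the 60 mitotic genes, coloured by the test of the difference between the lines, with equal responses along the dashed line. The 25 genes with the higher response in HPB-ALL lie above it, led by ASPM (difference 1.50), and CKS2 and SPC25 lie below it.

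Of other genes of mitosis, 102 were measured of 107 listed. In HPB-ALL 33 of 102 rose and 0 fell, with a median of 0.16, where 4.96% and 4.38% of all genes did so. In KOPT-K1 10 rose and 15 fell, with a median of -0.04, where 5.85% and 13.2% of all genes did so, and the falls are near that share. BORA, a partner of AURKA in switching on PLK1, rose in HPB-ALL (0.63 ± 0.05) and was at 0.02 ± 0.05 in KOPT-K1. CENPW, an inner kinetochore protein, rose in KOPT-K1 (0.68 ± 0.06) and was at 0.14 ± 0.06 in HPB-ALL, the order seen for CKS2 and SPC25. KNL1, the kinetochore scaffold for BUB1, rose in HPB-ALL (0.55 ± 0.09) and fell in KOPT-K1 (-0.38 ± 0.09), as did CLASP1, a microtubule stabiliser (0.49 ± 0.07 and -0.51 ± 0.07). DEPDC1 rose in both lines (0.36 ± 0.06 in HPB-ALL and 0.28 ± 0.06 in KOPT-K1), as did TROAP (0.43 ± 0.06 and 0.21 ± 0.06). CENPL rose in HPB-ALL only (0.63 ± 0.08), and ANAPC15 and ENSA in KOPT-K1 only (0.37 ± 0.08 and 0.21 ± 0.06). HAUS7, CDC16 and NFYC fell in KOPT-K1 (-0.25 ± 0.07, -0.33 ± 0.06 and -0.34 ± 0.07) and in the mean of both lines. None of them was called in HPB-ALL. Cohesin genes, 11 in number, gave 3 rises and 0 falls in HPB-ALL and 0 rises and 4 falls in KOPT-K1, with PDS5A, a cohesin regulator, at -0.37 ± 0.06 there.

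Of 12 mitotic kinesins 7 rose and 0 fell in HPB-ALL, with a median of 0.36, and 0 were called in KOPT-K1 (1 at an unadjusted p under 0.05 in limma). G1/S and DNA replication genes, 37 measured of 38, gave 2 rises and 7 falls in HPB-ALL and 2 rises and 14 falls in KOPT-K1, with medians of -0.02 and -0.14. Over all genes, 4.96% rose and 4.38% fell in HPB-ALL, and 5.85% rose and 13.2% fell in KOPT-K1. The G1/S rises are near these shares in both lines.

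**Figure D5:**
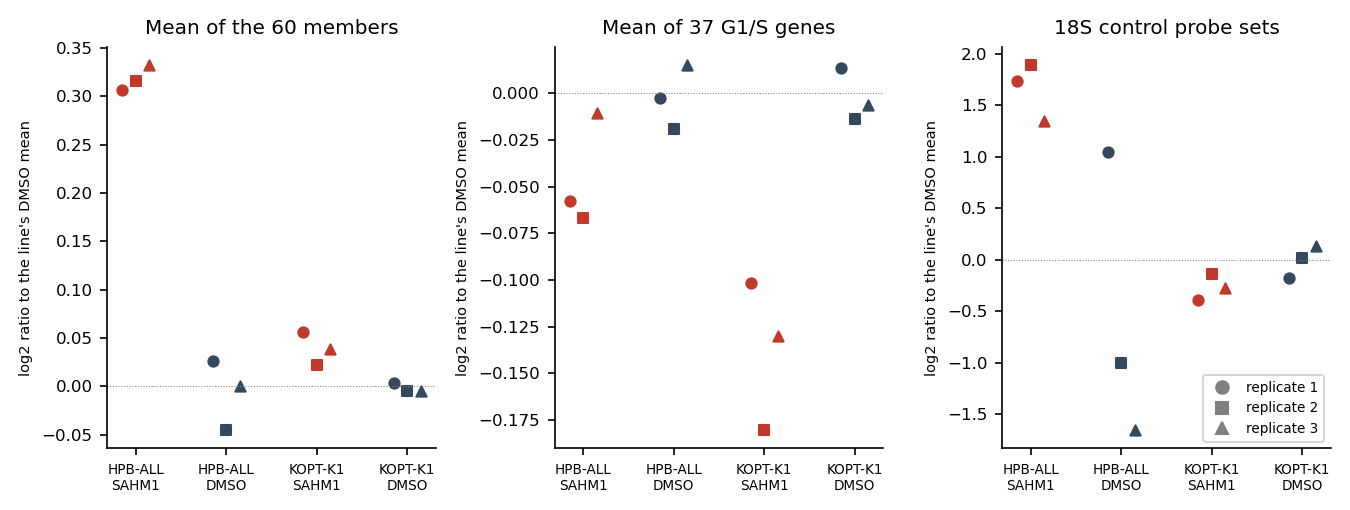
Mean log2 ratio to the DMSO mean of the line (y axes, each with its own scale) on each of the 12 arrays, by group (x axes), for the 60 mitotic genes, 37 G1/S genes and the 18S control probe sets, with 1 symbol per replicate. The mitotic mean is 0.31 to 0.33 on the HPB-ALL SAHM1 arrays, and the 18S level of HPB-ALL DMSO replicate 1, 1.05, is near that of the SAHM1 arrays.

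Tested one probe set at a time, 54 of the 124 probe sets of the mitotic genes rose and 0 fell in HPB-ALL, where 3.65% of all probe sets rose and 2.68% fell. In KOPT-K1 15 rose and 5 fell, where 4.21% and 12.0% did so. In 0 of the 60 genes were probe sets called in opposite directions within a line. The DMSO array with the high 18S level was the highest of the 3 HPB-ALL DMSO arrays for 26 of the 60 genes, and it was so for 29.2% of all genes. In KOPT-K1 the 18 hybridization spike probe sets were higher with SAHM1 by 0.83 in log2 (exact permutation p = 0.10), and with both the 18S and the spike levels as covariates 4 of the 60 genes were called there. The 5′ minus 3′ difference of the ACTB control, a sign of RNA integrity, was -0.24 in HPB-ALL and -0.17 in KOPT-K1, SAHM1 minus DMSO (exact permutation p = 0.10 in each). The part of these signals in the results was not tested further.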

How the data were processed

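RNA from 12 cultures of HPB-ALL and KOPT-K1 was measured on Affymetrix arrays with 54675 probe sets. The submitters' processing notes name RMA, and its version is not given in the sources used here. What was deposited by the authors are linear ratios, since in all 54675 probe sets the 3 DMSO arrays of each line average 1 within 1e-06, and values run from 0.0827 to 6.98. Levels are thus lost, and no filter on dim probe sets could be applied. Precision is limited by the number of arrays, and none duplicated another. The design text speaks of triplicate cultures, whose spread is what the p-values measure.

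Ratios were turned into log2 with no pseudocount. Of the probe sets, 41097 carried 1 symbol in the platform annotation, 1801 several (8 of these include a mitotic gene and were not used) and 11777 were not listed. Of the first, 41043 were matched to RefSeq by gene identifier and 0 symbols changed. Probe sets of a symbol were averaged to 19775 genes.

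limma 3.58.1 under R 4.3.3 fitted all 12 arrays in 4 groups (lmFit and eBayes, two-sided tests), with 8 residual degrees of freedom, 12.6 after moderation, and the steps were tested on simulated data. The 4 contrasts were SAHM1 against DMSO in each line, their mean, and the difference between lines (HPB-ALL minus KOPT-K1), each adjusted by Benjamini-Hochberg over all genes and called under 0.05. The 60 genes, the other lists and the tests were chosen with earlier results of these data known. Described with full values were up to 3 genes per role and contrast with the smallest p, a fixed set (CCNB1, CDK1, PLK1, AURKA, BUB1, CDC20, TOP2A, FOXM1 and MKI67), genes called against the majority of their contrast, and genes with opposed probe sets. The others are given by call and change. Other mitosis genes were named by smallest p, up to 3 per contrast and direction. Promoters were those of RefSeq, GRCh38.p14, for the 5 genes with the smallest p in the mean of both lines. Alternatives were quantile normalization, median centring, leaving out _x_at and _s_at probe sets, the median of probe sets, each line alone, 18S and spike levels as covariates, the replicate number as a block, single probe sets, and leaving out each array. No pairing of the arrays by replicate number was seen.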

Additional observations from a re-analysis of the deposited data

Results flagged for a closer look

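The response to SAHM1 differed between HPB-ALL and KOPT-K1, by limma's test of the difference itself, for 27 of the 60 mitotic genes, where 16.8% of all genes were called. The count was 2 with the 18S covariate, 1 after quantile normalization and 0 with 18S and spike levels as covariates (17 at an unadjusted p under 0.05 in limma). The values are HPB-ALL response minus KOPT-K1 response in log2. Among regulators of CDK1 and the kinases they were -0.50 for CKS2, 0.27 for WEE1, 0.55 for CDC25C, 0.45 for NEK2 and 0.54 for AURKA. In the chromosomal passenger complex they were 0.74 for AURKB, 0.59 for INCENP and 0.28 for BIRC5. Kinetochore genes had 0.28 for CENPA, 0.79 for CENPE, 0.45 for CENPF, 0.73 for NDC80, -0.30 for SPC25 and 0.39 for ZWINT. At the spindle they were 0.67 for HMMR, 1.50 for ASPM, 0.48 for DLGAP5, 0.36 for NUSAP1 and 0.42 for GTSE1. For cytokinesis and the APC/C they were 0.49 for RACGAP1, 0.39 for CEP55 and 0.35 for UBE2C. For condensin and chromosome structure they were 0.58 for SMC4, 0.41 for NCAPD2, 0.34 for NCAPG, 0.52 for TOP2A and 0.57 for SGO2.

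Signals outside the measured genes also differed from the DMSO arrays. The 18S control probe sets were higher by 2.19 in log2 with SAHM1 in HPB-ALL, and the hybridization spikes were higher by 0.83 with SAHM1 in KOPT-K1. The exact permutation p was 0.10 for each, the smallest possible with 3 arrays against 3.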

How the results depend on the processing

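The number of mitotic genes called was 33 in HPB-ALL, 16 in KOPT-K1, 33 in the mean of both lines and 27 in the difference between the lines. Quantile normalization of the ratios gave 10, 0 (11 at an unadjusted p under 0.05 in limma), 5 and 1. The 18S covariate gave 2, 16, 21 and 2, and 18S with spike levels gave 1, 4, 13 and 0 (17 at an unadjusted p under 0.05 in limma). Without _x_at and _s_at probe sets, which left 45 of the 60 genes, they were 22, 10, 18 and 18. Leaving out each array in turn gave 26 to 35, 11 to 17, 28 to 32 and 22 to 27. Median centring, the median of probe sets, each line alone and single probe sets (added after seeing the data) stayed within 1.5 times. The cause of these shifts was not tested.

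The median change of the 60 genes in HPB-ALL was 0.24 after quantile normalization and 0.29 with the 18S covariate, against 0.30 as reported. Over all genes the counts were 1846 in HPB-ALL, 3761 in KOPT-K1, 2232 in the mean and 3323 in the difference. They were 258, 95, 184 and 127 after quantile normalization, 52, 3493, 752 and 324 with the 18S covariate, 39, 597, 397 and 68 with 18S and spikes, and 1019, 2498, 1242 and 2270 without the suffixed probe sets. Leaving out arrays gave 913 to 2012, 2528 to 3885, 1532 to 2203 and 2341 to 3369. The change of CDC25C reversed in the difference between the lines without the suffixed probe sets, at -0.12. For the 48 genes with full values, 26 of 30 calls in HPB-ALL, 11 of 15 in KOPT-K1, 27 of 30 in the mean and 19 of 26 in the difference were kept in every fit without 1 array. In the difference, the calls of AURKA and NUSAP1 were lost in 1 of 12 fits, GTSE1 in 6, BIRC5 in 8, and CENPA, SPC25 and WEE1 in 10.

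Same-numbered SAHM1 and DMSO arrays correlated between -0.05 and 0.07 in their deviations, so the numbers are only names. With the replicate number as a block, 29 mitotic genes were called in HPB-ALL, 13 in KOPT-K1, 29 in the mean and 22 in the difference, and over all genes 1261, 3071, 1692 and 2616.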
